A study of Musa balbisiana with 10 samples.

Results

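The 443 transcribed regions described here had lower levels in the pulp of ethylene-treated Klutuk Wulung fruit than in control fruit on day 1 and levels close to control fruit on day 7. They were chosen by these values from 27929 regions of the *Musa balbisiana* genome (1.59%) that had a value in every library. A region is a stretch of overlapping loci of at least 300 bp, and its FPKM (fragments scaled by transcript length and by the mapped fragments of the library) is the sum over its loci. On the log2(FPKM + 1) scale, the mean of ethylene-treated fruit had to be at least 1.5 below that of control fruit on day 1 and within 0.5 of it on day 7, with a mean FPKM of at least 1 in ethylene-treated fruit on day 1. The 2 differences between treatments therefore set the choice, and nothing is tested with them.

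The libraries came from fruit pulp of Klutuk Wulung, a seeded banana of the BB group. Control fruit had no ethylene and gave 2 libraries on day 1 (K1, replicates A and B) and 3 on day 7 (K7, A, B and C). Ethylene-treated fruit had been exposed to the gas at 100 µl/L in a glass container and gave 2 libraries on day 1 (E1, A and C) and 3 on day 7 (E7, A, B and C). The libraries K1 A, K7 A and E7 A were single-end and the other 7 paired-end, so E1 has no single-end library and layout cannot be fully separated from treatment on day 1. The study calls the replicates biological, without saying whether a letter stands for a fruit, a hand or a bunch, so p-values measure the spread between these libraries. No 2 of the 10 libraries were copies of each other.

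Banana is a climacteric fruit, in which ripening goes along with a burst of ethylene production. In the pathway worked out in Arabidopsis, the hormone turns off receptors that hold the response back, and the transcription factors EIN3 and EIL then accumulate and change the level of many transcripts, both up and down. In ripening banana pulp, starch is turned into sugar and cell walls loosen. No gene names go with the identifiers in the tables. The regions therefore could not be placed in these pathways, and pulp markers could not be checked. In pulp RNA, fewer cells of a type and less RNA per cell cannot be told apart.

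In E1 the level of the 443 regions was low, and in the 3 other groups it was high. Their median FPKM was 3.76 in E1 A and 3.86 in E1 C, against 18.6 in K1 A and 18.0 in K1 B. On day 7 the median was 15.2, 13.3 and 13.8 in K7 A, B and C, and 13.2, 10.9 and 10.8 in E7 A, B and C. The 16821 regions whose mean FPKM reached 1 were tested, and their median stayed between 7.48 and 9.65 in the 10 libraries. The 443 regions are 2.63% of these, and all 443 passed that filter. They held 4.64% to 5.13% of the FPKM of all regions in K1, 0.851% to 0.871% in E1, 4.01% to 4.33% in K7 and 2.58% to 3.07% in E7.

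**Figure D1:**
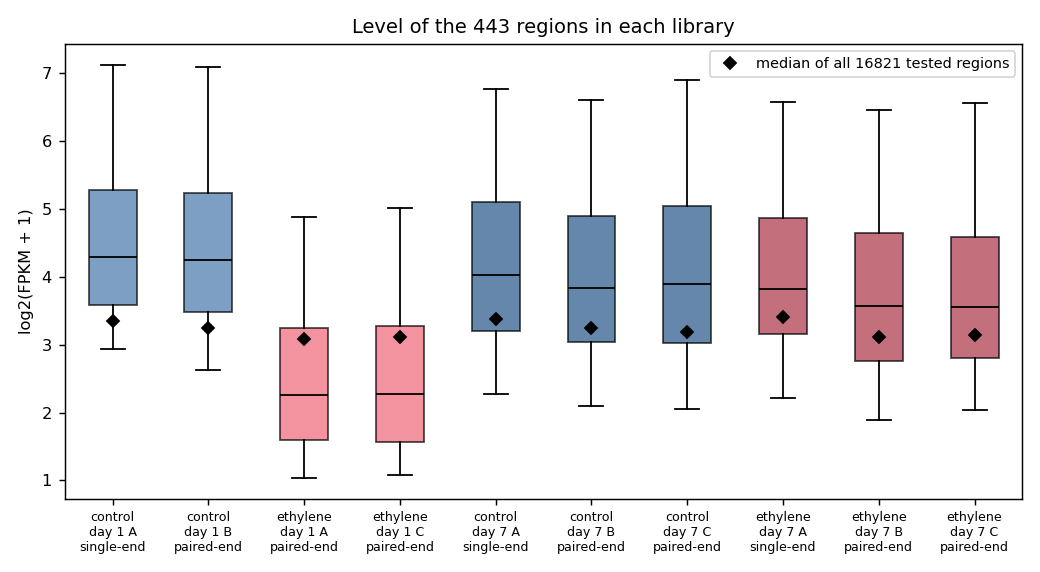
Level of the 443 regions as log2(FPKM + 1) in each of the 10 libraries, with boxes from the lower to the upper quartile, a line at the median and whiskers from the 5th to the 95th percentile. Black diamonds mark the median of all 16821 tested regions; the boxes of E1 A and E1 C lie lowest, with medians of 3.76 and 3.86 FPKM.

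The number of fragments behind the values was read from the width of the bounds that Cufflinks gives, if those bounds reflect counting error. A region then rested on a median of 154 fragments in E1 A and 181 in E1 C, and on 432 to 730 in the other libraries. Under 10 fragments, read in this way, stood behind 10 regions in E1 A and 11 in E1 C. The reading does not hold for every region. In chr9:7293471-7300366, K7 A, B and C had 406, 404 and 442 FPKM, but 48714, 3785 and 50650 fragments by this reading. Of the 443 regions, 156 consisted of a single locus in every library, and for 150 of these the bounds of both K1 libraries lay above those of both E1 libraries. The bounds of all 3 E7 libraries lay above those of both E1 libraries in 129 of the 156, and the bounds of every K7 library overlapped those of every E7 library in 6. These counts were made for the chosen regions alone. The choice largely brings about those of 150 and 129, so nothing is read from them. Bounds of a single library leave out the spread between libraries, and no like count was made over all tested regions. Nothing is therefore read from the 6 either.

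The difference E1 minus K1 had a median of -1.80 on the log2(FPKM + 1) scale and reached from -5.05 to -1.501. It lay between -1.75 and -1.5 for 199 of the 443 regions, and at or below -3 for 21. limma, with an adjusted p under 0.05, called 432 of the 443 lower in E1, where 24.8% of all tested regions were called lower, and every K1 library was above every E1 library in 441, against 44.8% of all tested regions. Both counts follow from the choice of the regions. The 2 exceptions, Bscaffold199:29255-31178 and Bscaffold323:26542-28543, had FPKM values of 4.83 and 2.42 in K1 A and 66.3 and 22.1 in K1 B, and both were listed at 0 in E1 C.

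The median difference over all tested regions was itself -0.24 on day 1, and scaling by median-of-ratios factors gave -0.02 for all tested regions and -1.57 for the 443. The same scaling changed the split of calls over all tested regions on day 1 from 17.1% higher and 24.8% lower to 22.6% higher and 19.6% lower. In paired-end libraries alone the median of the 443 was -1.78, and each region was lower in E1 than in K1 B. For the 4 pairs of an E1 with a K1 library, the median ranged from -1.91 to -1.79.

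On day 7 the difference E7 minus K7 had a median of -0.32 over the 443 regions, where all tested regions had -0.11. It was below 0 in 373 and above 0 in 70. Of the 11436 tested regions that lay within 0.5 of control on day 7, 7017 were below 0 and 4417 above. Every K7 library was above every E7 library in 117 of the 443 regions (26.4%), against 19.1% of all tested regions. Every E7 library was above every K7 library in 4, against 15.6%: chr5:2905466-2912503, chr5:11047440-11049544, chr7:6695458-6710347 and chr10:24581424-24583602. Most of the regions thus ended day 7 somewhat under control fruit, inside the limit that the choice allows.

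limma called 2 of the 443 regions lower with ethylene on day 7, where 4.71% of all tested regions were called lower. It called none higher, where 8.75% of all tested regions were. With layout as a term, these shares of all tested regions were 8.64% and 10.35%. The limit of 0.5 leaves little to call. The count was 22 with layout as a term and 0 to 6 when a library was left out, with 0 without E1 A, E1 C, E7 B or E7 C. One of the 2 was chr2:4853186-4861281, with 72.9, 61.0 and 76.6 FPKM in K7 A, B and C and 51.6, 49.8 and 47.0 in E7 A, B and C. The other was chr9:7293471-7300366, described further on.

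Of 1025 regions that met the conditions of day 1, these 443 (43.2%) were within 0.5 of control on day 7, 550 were still lower and 32 were above control. The 550 had a median E7 minus K7 of -0.71 and the 32 of 0.80. On day 1 the median differences of the 3 sets were -1.80, -1.91 and -1.87. The limits cut through a continuous range. The 2 regions just inside -0.5 on day 7 were at -0.4990 and -0.4985, and the 2 just outside at -0.5003 and -0.5019. At the upper limit of 0.5 they were at 0.486 and 0.483 inside, and at 0.521 and 0.521 outside. At -1.5 on day 1 they were at -1.501 and -1.504 inside and at -1.499 and -1.497 outside. At the floor of 1 FPKM in E1, they had 1.002 and 1.008 inside and 0.9999 and 0.9988 outside. Without that floor, 665 regions would have met the other conditions.

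**Figure D2:**
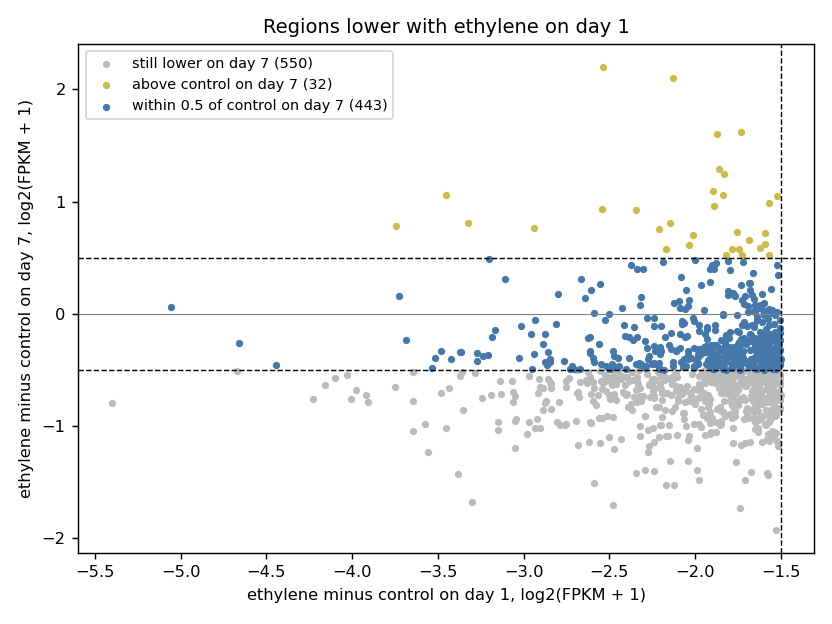
Ethylene minus control on day 7 against ethylene minus control on day 1, as differences of group means of log2(FPKM + 1), for the 1025 regions that met the conditions of day 1. Dashed lines mark the limits of -1.5, -0.5 and 0.5; the 443 regions (blue) lie between 550 that were still lower and 32 that were above control on day 7.

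Equal levels on day 7 can be reached from either side: ethylene-treated fruit can be higher on day 7 than on day 1, or control fruit lower. Over the 443 regions, E7 minus E1 had a median of 1.26 and was above 0 in 439, while K7 minus K1 had a median of -0.29 and was below 0 in 340. All tested regions had medians of 0.11 and -0.02. In 292 of the 443 (65.9%) the mean of ethylene-treated fruit was higher by at least 1 on day 7 and that of control fruit was not lower by as much. In 42 (9.48%) control fruit were lower by at least 1 and ethylene-treated fruit were not higher by as much. In 19 both held and in 90 neither did. The 292 had a median of 3.80 FPKM in E1 and 14.2 in E7, with 18.8 in K1 and 17.1 in K7. The 42 had a median of 19.6 in K1, 3.95 in E1, 6.70 in K7 and 7.25 in E7. For these 42 the day 7 level of both treatments was nearer to that of E1 than to that of K1, so a return to the level of day 1 control fruit does not describe them.

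The change from day 1 to day 7 averaged over both treatments (the day effect) was not itself a condition of the choice, but it is formed from the same 4 group means. With equal numbers of control and ethylene-treated libraries on each day, its error is independent of that of both differences between treatments where the treatments vary alike, so a p-value for a single region tests whether that region's average level changed between the days. The treatments did not vary quite alike, since the median SD of the 443 regions was 0.30 in K1 and 0.14 in E1 (n = 2 each) on the log2 scale, and 0.27 in K7 and 0.23 in E7 (n = 3 each). The floor on E1 was also part of the choice. Over the set, a low E1 with E7 near K7 gives a day effect above 0 wherever control fruit are level, so the counts that follow describe the chosen regions and nothing is read from them against the background. The day effects and p-values of single regions named below carry the low E1 in the same way where control fruit are level. The day effect had a median of 0.51 over the 443 regions and was above 0 in 370, while over all tested regions the median was 0.04. limma called it higher on day 7 in 165 of the 443 regions (37.2%), where 8.01% of all tested regions were called higher, and lower in 8 (1.81%), where 7.6% were. Without E1 A or without E1 C that group is 1 library, assumed to vary like the others. The median day effect of the 443 was then 0.47 and 0.52, against 0.03 and 0.05 over all tested regions.

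Of the 550 regions still lower on day 7, 217 (39.5%) were called higher for the day effect and 3 lower, with a median of 0.50. Of the 32 above control on day 7, 2 were called higher and 7 lower, with a median of -0.09. No test of the difference between these sets was made. Among the 443, the called regions split by how equal levels were reached: 162 of the 165 were among the 292 in which only ethylene-treated fruit were higher by at least 1, and the 8 were all among the 42 in which only control fruit were lower by at least 1. That split uses the same means as the day effect and describes it.

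**Figure D3:**
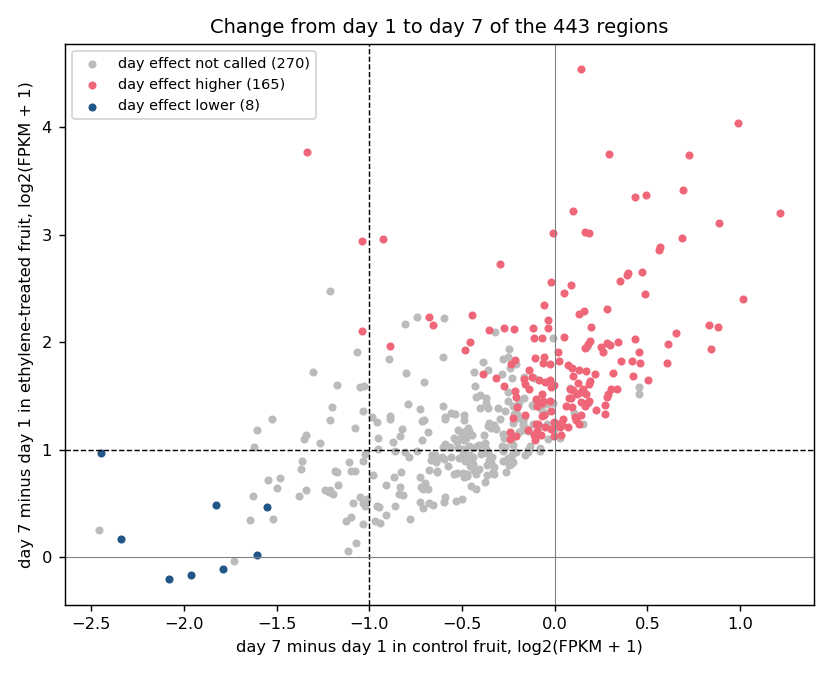
Change from day 1 to day 7 in ethylene-treated fruit (vertical axis) against that in control fruit (horizontal axis), as differences of group means of log2(FPKM + 1), for the 443 regions. Dashed lines mark a change of 1 up or of 1 down; colours show the regions called for the day effect by limma, 165 higher and 8 lower.

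Every E7 library was above every E1 library in 405 of the 443 regions, against 33.4% of all tested regions, and limma called E7 above E1 in 322, against 14.3%. Every K1 library was above every K7 library in 157, against 14.4%, and limma called K7 below K1 in 21, against 1.05%. These contrasts share E1 and K1 with the choice, so nothing is read from them. The interaction of treatment and day, which the choice fixes in the same way, was called higher in 318 regions, against 8.31% of all tested regions, and lower in 0, against 5.9%. In control fruit 2 regions, chr8:42188306-42190362 and chr10:23878017-23899209, were called higher on day 7, against 0.262% of all tested regions.

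The regions with the deepest minimum on day 1 show the pattern at its clearest. The region chr9:8146190-8152938 holds the annotated identifier Mba09_g11240.v1.1. It joins up to 3 loci per library, so its summed FPKM is not shown to be that of the identifier. The same limit holds for other named regions that join loci. This region had 232 FPKM in K1 A and 308 in K1 B, and 8.79 in E1 A and 10.6 in E1 C. On day 7 it had 227, 287 and 395 FPKM in K7 A, B and C and 224, 257 and 261 in E7 A, B and C. The control libraries of both days and the ethylene-treated libraries of day 7 overlapped, and E1 lay far below them all. E1 minus K1 was -4.66, E7 minus K7 was -0.26, and the day effect was 2.34 (standard error 0.166, limma adjusted p = 4.03e-05). K7 minus K1 was 0.14 and E7 minus E1 was 4.54, so this day effect rests on the low E1 for which the region was chosen.

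The largest fall on day 1 was that of chr3:1649471-1650747. It had 132 and 191 FPKM in K1 A and B and 3.85 and 3.77 in E1 A and C, a difference of -5.05. On day 7 it had 43.7, 82.6 and 66.8 FPKM in K7 and 68.3, 63.8 and 62.5 in E7. Here both treatments met below the level of K1, since K7 minus K1 was -1.33 and E7 minus E1 was 3.77, with a day effect of 1.22 (standard error 0.181, limma adjusted p = 0.00191).

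A like course was seen for chr7:12669134-12673209, with 58.6 and 57.1 FPKM in K1, 3.45 and 3.43 in E1, 24.7, 31.5 and 34.4 in K7 and 40.7, 29.7 and 31.4 in E7. Its day effect was 1.02 (standard error 0.138, limma adjusted p = 0.00123). For chr3:1192736-1197604 the 2 control libraries of day 1 were far apart, at 80.8 FPKM in K1 A and 27.9 in K1 B, while E1 had 1.40 and 1.08, K7 had 24.5, 21.0 and 22.6, and E7 had 13.8, 23.1 and 13.4. Its day effect of 0.95 (standard error 0.273, limma adjusted p = 0.0421) passed the threshold under 7 of 21 alternatives only.

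The largest day effect was that of chr8:42188306-42190362, a single locus with the identifier Mba08_g30320.v1.1 and the same coordinates in all libraries. It had 40.3 and 64.4 FPKM in K1, 3.47 and 3.50 in E1, 98.4, 95.1 and 114 in K7 and 76.5, 71.6 and 70.4 in E7. Both treatments were higher on day 7 than on day 1, with a day effect of 2.52 (standard error 0.141, limma adjusted p = 1.09e-05), and every E7 library was still below every K7 library. The region chr10:23878017-23899209 had 37.7 and 41.4 FPKM in K1, 8.53 and 10.5 in E1, 69.5, 90.2 and 129 in K7 and 108, 86.5 and 93.2 in E7. Its day effect was 2.21 (standard error 0.171, limma adjusted p = 6.42e-05), and K7 and E7 overlapped.

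The libraries of a group were far apart in chr11:7419627-7428547, which had 142 FPKM in K1 A and 40.3 in K1 B, and 5.15 and 7.34 in E1. On day 7 it had 108, 139 and 134 FPKM in K7 and 54.8, 130.1 and 119 in E7, the lowest being the single-end E7 A. E1 still lay below every other library. Its day effect of 2.23 (standard error 0.349, limma adjusted p = 0.00250) passed the threshold under all 21 alternatives, with values from 1.79 to 2.93.

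**Figure D4:**
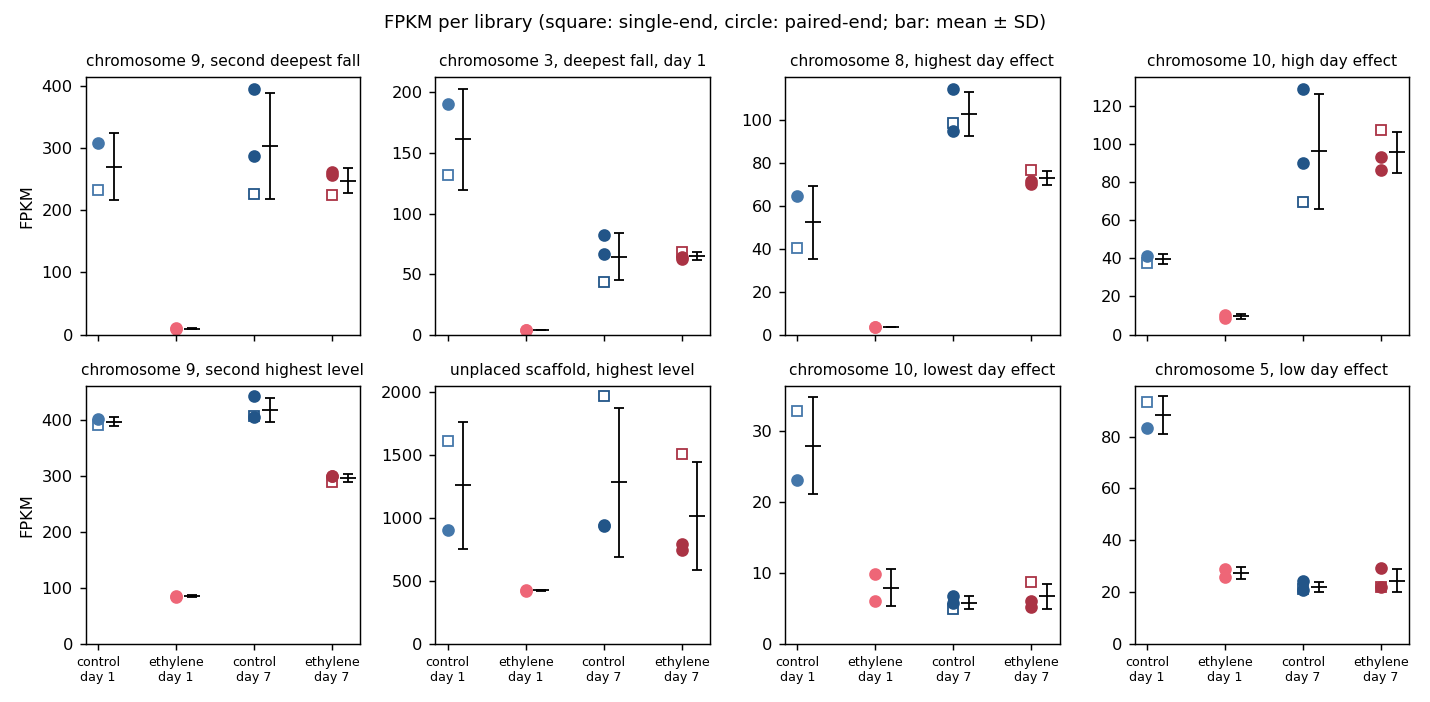
FPKM of 8 of the regions in each library, by group, with squares for single-end and circles for paired-end libraries and a bar for the mean ± SD of the group (n = 2 on day 1, n = 3 on day 7). In the first 5 panels E1 lies far below the other groups, in the scaffold panel the squares lie above the circles, and in the last 2 panels K7 and E7 lie near the level of E1 and K1 stands alone.

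The most abundant of the 443 regions was Bscaffold116:19562-23737, on a scaffold not placed on a chromosome. It had 1610 FPKM in K1 A and 902 in K1 B, 425 and 421 in E1, 1964, 936 and 942 in K7 and 1506, 744 and 790 in E7. In each group with both layouts, the single-end library was the highest. In paired-end libraries, E7 lay below K7 and both lay above E1. Its day effect of 0.59 (standard error 0.29, limma adjusted p = 0.213) was not past the threshold, and it passed under 4 of 21 alternatives only. These were layout as a term (0.51, limma adjusted p = 0.0040) and paired-end libraries alone (0.46, with 1 library in K1). The others were a replicate block by letter (0.72, limma adjusted p = 0.0289) or by number (0.75, limma adjusted p = 0.0404).

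Bscaffold180:42003-44711 had the same split by layout, with 536 FPKM in K1 A and 242 in K1 B, 109 and 106 in E1, 438, 210.2 and 205 in K7 and 316, 154 and 138 in E7. In 12 of the 443 regions (2.71%), the single-end library exceeded the paired-end ones by at least 0.75 on the log2 scale in K1, K7 and E7 alike, against 0.749% of all tested regions. Of these 12, 5 lay on unplaced scaffolds. E1 has only paired-end libraries, and the part of layout in the difference E1 minus K1 of these regions was not tested. In paired-end libraries alone, E1 minus K1 was -1.17 instead of -1.74 for Bscaffold180:42003-44711 and -1.09 instead of -1.51 for Bscaffold116:19562-23737, so that neither would have met the limit of -1.5.

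Next in abundance was chr9:7293471-7300366, whose libraries agreed closely within groups. It had 391 and 403 FPKM in K1, 84.1 and 86.0 in E1, 406, 404 and 442 in K7 and 288, 300.5 and 299.9 in E7. E7 lay above E1 and below K7 without overlap, and the day effect was 0.93 (standard error 0.0964, limma adjusted p = 0.00030).

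The regions chr8:13730241-13737507 and chr4:4601878-4603897 were also high, and their day 7 libraries scattered. The first had 420.5 and 351 FPKM in K1, 156 and 115 in E1, 325, 221 and 330.0 in K7 and 186, 317 and 358 in E7. The second had 398 and 324 in K1, 134 and 104 in E1, 277, 174 and 298 in K7 and 375, 217 and 172 in E7. In both, K7 and E7 overlapped, and the day effects of 0.31 (limma adjusted p = 0.373) and 0.23 (limma adjusted p = 0.563) did not pass the threshold.

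In chr7:6285678-6292282, K7 was lower than K1: it had 416 and 209.9 FPKM in K1, 64.1 and 59.8 in E1, 110.5, 149.8 and 156 in K7 and 108, 115 and 103 in E7. K7 minus K1 was -1.10 and E7 minus E1 was 0.80. Its day effect was -0.15 (limma adjusted p = 0.649), and it was 0.10 without K1 A and 0.18 in paired-end libraries alone.

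Of the regions with exactly 1 annotated identifier, 3 others were the highest in K1. A locus of 869 bp at chr8:9747948-9748816 had 215 and 310.0 FPKM in K1, 78.6 and 87.9 in E1, 255, 310.1 and 393 in K7 and 280.2, 272 and 483 in E7. Its day effect was 1.14 (standard error 0.203, limma adjusted p = 0.00498). The region chr7:31883988-31941979 joins up to 15 loci per library over 57992 bp, so that its values belong to no single transcript. It had 159 and 129 FPKM in K1, 41.7 and 53.7 in E1, 155, 129 and 147 in K7 and 114, 97.8 and 102 in E7, with a day effect of 0.56 (standard error 0.124, limma adjusted p = 0.0140) that passed the threshold under 20 of 21 alternatives and not without E1 A (0.47, limma adjusted p = 0.0797). The region chr1:18401142-18410705 had 139 and 155 FPKM in K1, 25.9 and 35.3 in E1, 92.7, 62.3 and 84.4 in K7 and 101, 64.1 and 69.6 in E7, and its day effect of 0.21 (limma adjusted p = 0.460) did not pass the threshold.

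The 8 regions called lower for the day effect had another course, in which ethylene-treated fruit were low on both days and control fruit were low on day 7 only. In chr10:42063891-42070506, K1 had 32.8 and 23.1 FPKM, E1 had 6.03 and 9.77, K7 had 4.90, 5.71 and 6.77, and E7 had 8.69, 6.07 and 5.24. All groups but K1 overlapped, and the day effect was -1.14 (standard error 0.195, limma adjusted p = 0.00402).

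In chr5:40537208-40538489, K1 had 93.5 and 83.3 FPKM, E1 had 29.0 and 25.7, K7 had 21.1, 20.7 and 24.1, and E7 had 21.7, 22.0 and 29.4. Every K7 library lay below both E1 libraries, and E7 overlapped both groups. The day effect was -1.07 (standard error 0.127, limma adjusted p = 0.000609). In chr8:4813030-4814587, K1 had 24.1 and 11.6 FPKM and every other library had 1.87 to 3.10, with a day effect of -1.09 (standard error 0.205, limma adjusted p = 0.00640).

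At a lower level, chr5:32096844-32097685, with the identifier Mba05_g19580.v1.1, had 4.20 and 7.05 FPKM in K1 and 0.545 to 1.28 in the other 8 libraries, with a day effect of -0.95 (standard error 0.178, limma adjusted p = 0.00620). In 4 of the 443 regions the mean of E7 was below that of E1. They were the regions of chromosome 10 and both of chromosome 5 just described, and chr11:21508926-21517143.

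The depth of the fall on day 1 went along with the size of the later difference and with little change in the end point. For the 21 regions at or below -3 on day 1, the median E7 minus E1 was 2.96 and the median E7 minus K7 was -0.34. For the 199 between -1.75 and -1.5, the medians were 1.02 and -0.32. Both relations are set by the choice, which bounds E7 minus K7 for every region, so nothing is read from them. Median K7 minus K1 was -0.68 in the 21 regions and -0.33 in the 199.

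Levels in K1 ranged widely. The mean FPKM in K1 was 5 to 10 in 83 regions, 10 to 30 in 219, 30 to 100 in 107 and 100 or more in 34, and none was under 5. The median day effect in these 4 classes was 0.45, 0.46, 0.57 and 0.55, and limma called 24, 79, 48 and 14 of them higher on day 7. The share of called regions thus lay between 24 of 83 and 48 of 107 in every class. It was not set beside the share in all tested regions of the same level, so nothing is read from it. The floor on E1 and the limit of day 1 largely keep out regions under 5 FPKM in K1.

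Since every library took part in the choice, it was repeated without each library in turn, and the value of the library left out was read for the regions then chosen. A library that the choice did not use is thus set against libraries of the other treatment that it did use. The differences still carry part of the choice, and they are given as a description. Without E1 A, 482 regions were chosen, and E1 A minus K1 had a median of -1.73 over them, with 98.96% below 0. Without E1 C, 490 were chosen, with a median of -1.71 and 99.8% below 0. Without K1 A, 459 were chosen, and E1 minus K1 A had a median of -1.62, with 98.3% below 0. Without K1 B, 636 were chosen, with a median of -1.36 and 97.3% below 0. Over all tested regions these medians were -0.25, -0.21, -0.27 and -0.18, in the same order. With all libraries, E1 minus K1 was below 0 in 10082 of the 16821 tested regions. Among the libraries of day 1, the difference was smallest with K1 B left out.

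On day 7 the library left out gave a median E7 minus K7 between -0.51 (K7 A) and -0.22 (E7 A), both single-end. Over all tested regions these medians were -0.18 with K7 A left out and 0.05 with E7 A left out. With a paired-end library of day 7 left out they ran from -0.19 to -0.05. The part of layout in these values was not tested. The share of regions within 0.5 of control was 43.7% with K7 A left out and 54.8% to 69.8% with any other library of day 7 left out. Values at or below -1 made up 13.7% with K7 A left out and 3.54% to 5.77% with the others. The limit of 0.5 bounds a difference of group means, and a single library left out scatters more than a mean. Shares short of all regions were therefore set beforehand. No like share was made over all tested regions, so nothing is read from these shares about closeness to control on day 7. In the library left out, most values lay below 0, from 66.2% for E7 A to 89.5% for E7 B.

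The change between days was read in the same way. With E1 A left out, E7 minus E1 A had a median of 1.19 and was above 0 in 96.5% of the regions. With E1 C left out the median was 1.13, with 94.7% above 0. Over all tested regions these medians were 0.13 and 0.09. The libraries of day 7 had still been part of the choice. With K1 A or K1 B left out, K7 minus that library had a median of -0.08 and -0.03, and 44.7% and 47.6% of the regions were above 0. Over all tested regions these medians were -0.06 and 0.02. The median K7 minus K1 was -0.29 over the 443 regions, which share K1 with the choice. Of the regions chosen without K1 A and without K1 B, 326 and 386 were among the 443. The sets thus differ, and nothing is read from the difference between their medians.

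**Figure D5:**
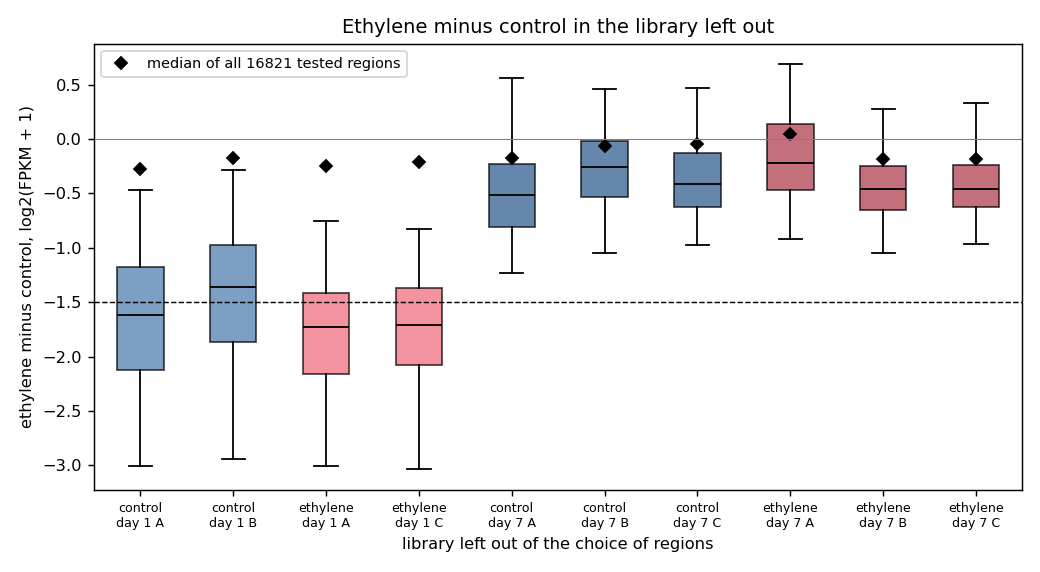
Ethylene minus control, as log2(FPKM + 1), in the library left out, for the regions chosen without that library (367 to 636), with boxes from the lower to the upper quartile, a line at the median and whiskers from the 5th to the 95th percentile. Black diamonds mark the median of all 16821 tested regions, and the dashed line marks -1.5; libraries of day 1 have medians from -1.73 to -1.36 and libraries of day 7 from -0.51 to -0.22.

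In size and make-up the 443 regions were near to all tested regions. Their median length was 6408 bp (quartiles 3567 and 10558), where all tested regions had 6790 bp. The shortest was chr3:10583767-10584066, of 300 bp, and the longest chr5:12637873-12835533, of 197661 bp. A length over 20000 bp was reached by 45 of the 443 (10.2%) and by 9.31% of all tested regions. In 35.2% a single locus was listed in every library, against 27.3% of all tested regions, and in 8.35% it had the same coordinates in all 10, against 6.71%.

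Annotated identifiers were listed in 124 regions (1 each) and in 17 (several each), while 302 (68.2%) held only loci that Cufflinks had named, against 65.5% of all tested regions. Median abundance in K1 was higher, at 18.2 FPKM against 9.02 over all tested regions, which the conditions on K1 and E1 bring about.

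The regions lay on all 11 chromosomes, with 24 on chromosome 2 to 49 on chromosome 7, and 13 were on unplaced scaffolds. As a share of tested regions they made up 1.84% on chromosome 1 to 3.69% on chromosome 11. Few were next to each other. Of the 867 places beside one of the 443 in the order of tested regions, 24 (2.77%) were taken by another, where 2.63% of all tested regions belong to the 443. The 12 neighbouring pairs had gaps of 714 to 51425 bp. The closest pair included the region with the identifier Mba09_g11240.v1.1: 714 bp before it, chr9:8136111-8145475 had a difference of -1.76 on day 1, against -4.66. On chromosome 6, chr6:36524685-36528229, chr6:36529628-36541183 and chr6:36544916-36547292 followed each other with differences of -3.17, -2.08 and -2.36.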

How the data were processed

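The authors trimmed the reads with Trimmomatic 0.38.0, mapped them with Tophat2 to the published B genome (DH PKW v1.1), and deposited FPKM values with bounds from Cufflinks, 1 table per library. How strand and multi-mapped reads were handled is not given in the sources used here. Positions were written 1-based. Loci of at least 300 bp were pooled over the tables and merged where they overlapped, which gave 30802 regions, and 27929 had a value in every library. Merging can join adjacent genes, and a summed FPKM adds loci of different lengths. The 16821 regions whose mean FPKM reached 1 entered the test on log2(FPKM + 1), with limma 3.58.1 under R 4.3.3 (means model of 4 groups, variance trend, Benjamini-Hochberg adjustment over all these regions in each of 6 contrasts, threshold 0.05). FPKM is no count, so no count test was run, and read totals, which the tables do not hold, were not used here. Fold changes on this scale understate the change of low regions. The code was tested on simulated data.

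The regions and the lists were chosen with earlier results of these data known. Regions named are the 6 highest in K1, the 4 lowest in E1 minus K1, the 4 largest and 4 smallest day effects past the threshold, the 4 highest with 1 identifier, and those beside each limit; others were chosen after their values were seen. Alternatives were other pseudocounts, filters, scalings, layout, blocks, variance model, locus lengths, limits and each library left out. The planned search of promoters for motifs was not run, since no sequences were used here.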

Additional observations from a re-analysis of the deposited data

Results flagged for a closer look

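The ethylene effect was not the same on both days in 318 of the 443 regions (interaction of treatment and day in limma, adjusted p under 0.05), where 8.31% of all tested regions were called in this direction. The choice of the regions used both parts of this contrast, so the count describes them. It was 182 without E1 A and 184 without E1 C.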

How the results depend on the processing

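Which regions were chosen depended on the processing. Paired-end libraries alone gave 448 regions, of which 264 were among the 443, and median-of-ratios scaling gave 338, of which 254 were. Quantile normalization gave 302 (272 shared) and a pseudocount of 0.1 gave 625 (385 shared). The number was 189 with a pseudocount of 5 (145 of them among the 443), 145 with a limit of -2 on day 1, 143 with a limit of 0.25 on day 7 and 180 with a floor of 5 FPKM in E1. Loci with the same start and end in all tables, without merging, gave 59. With a pseudocount of 5, 158 regions had E7 above E1 by at least 1 and 31 had K7 below K1 by at least 1. The 165 regions called higher for the day effect numbered 114 to 202 under all alternatives, with 180 for the replicate block by letter and 157 by number, and the 8 called lower numbered 5 to 11, with 5 to 9 when a library was left out (5 without E1 A or E1 C). Regions called for ethylene on day 7, 2 by the fit described, numbered 22 with layout as a term, 13 without a filter, 11 with quantile normalization, 10 in paired-end libraries alone, 4 with a pseudocount of 5 or a filter of 5, 1 with a pseudocount of 0.1, without a variance trend or with either replicate block, 0 with median-of-ratios scaling and 0 to 6 when a library was left out (0 without E1 A, E1 C, E7 B or E7 C). The interaction called 182 to 314 when a library was left out. The day effect of Bscaffold180:42003-44711 changed from 0.19 to -0.10 (value -0.0986) without K1 B and to 0.472 without K1 A, and that of chr7:6285678-6292282 from -0.15 to 0.0955 without K1 A, -0.396 without K1 B and 0.176 in paired-end libraries alone, none past the threshold. The cause was not tested. Same-letter pairs of day 7 gave correlations of deviations of 0.332, 0.0310 and 0.118 over regions. The 0.332 is that of K7 A and E7 A, both single-end, so letter and layout cannot be told apart there. On day 1, with 2 libraries per group, deviations mirror each other and every pair gave 0.0308 or -0.0308. Letters were not treated as pairs of libraries, and these values do not settle whether they are. The replicate blocks moved no other count by over 1.5 times. If the Cufflinks bounds reflect counting error, that error is widest in E1, where the regions were chosen for a low level. Under 10 fragments, read from those bounds, stood behind 10 and 11 of them.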
